A study of Mus musculus with 30 samples.

Results

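Matrix metalloproteinases (MMPs) and their tissue inhibitors (TIMPs) were followed in the ventral prostate (VP) through 9 genes taken by symbol, the 6 proteinases Mmp2, Mmp3, Mmp9, Mmp12, Mmp13 and Mmp14 and the 3 inhibitors Timp1, Timp2 and Timp3, out of 39179 gene identifiers in the count tables. Each symbol matched 1 identifier. RNA was sequenced from the VP of 30 male C57BL/6 mice, all fed from weaning on a growth diet of the same fat content that differed in its fat source, linseed oil (LO, rich in omega-3 polyunsaturated fatty acids), soybean oil (SO, rich in omega-6 polyunsaturated fatty acids) or lard (PF, rich in saturated fatty acids). There were 5 mice on each diet after 12 weeks and 5 others after 32 weeks, and the tissue was whole VP without sorting of cells. No transgene is described for any group. The paper describes glucose and insulin tolerance tests and a cold test near the end of the diets, and killing with excess xylazine and ketamine. It does not say which of the sequenced mice had these tests. The comparisons ask whether the fat source, and the time on it, went with different levels of these genes.

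MMPs are zinc-dependent endopeptidases that cleave extracellular matrix and many cell-surface and secreted proteins, and TIMPs bind their catalytic site and block them. In the prostate, as in other glands, they are known for remodelling the basement membrane and stroma around the ducts and for their part in inflammation and in the regression of the gland after androgen loss. Most are made as inactive precursors, so the RNA level of a proteinase is not its activity.

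Counts on genes totalled 27590631 to 41301707 per mouse, and levels are given as CPM, the count scaled to a library of 1000000 counts, after TMM scaling over all 30 mice. Of the 8 luminal epithelial genes used to check the tissue label, Sbp, the spermine binding protein of the VP secretion, had 76809 to 269003 CPM, and 6 seminal vesicle secretory genes summed to at most 0.276 CPM in any mouse. In bulk tissue, fewer cells that express a gene and less RNA per cell cannot be told apart.

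The 9 genes differed far more among themselves than between diets. Per kilobase of exon in GENCODE M21, Timp2 was highest in every group, with means of 75.5 to 93.4 CPM per kilobase. Timp3 followed, with means of 13.6 to 16.5, and then Mmp2 with 9.42 to 13.3. The ranges of the Timp3 and Mmp2 group means did not overlap, although single mice on these 2 genes did. Timp1 (4.21 to 9.48) and Mmp14 (3.18 to 5.08) came next, with Timp1 overlapping both its neighbours. Mmp9 had means of 1.01 to 1.97 CPM per kilobase, and Mmp12, Mmp3 and Mmp13 were mostly below 1, with means of 0.171 to 2.75, 0.021 to 0.757 and 0.0472 to 0.349. The last 3 genes could not be put in a fixed order, because their ranges crossed from group to group.

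**Figure D1:**
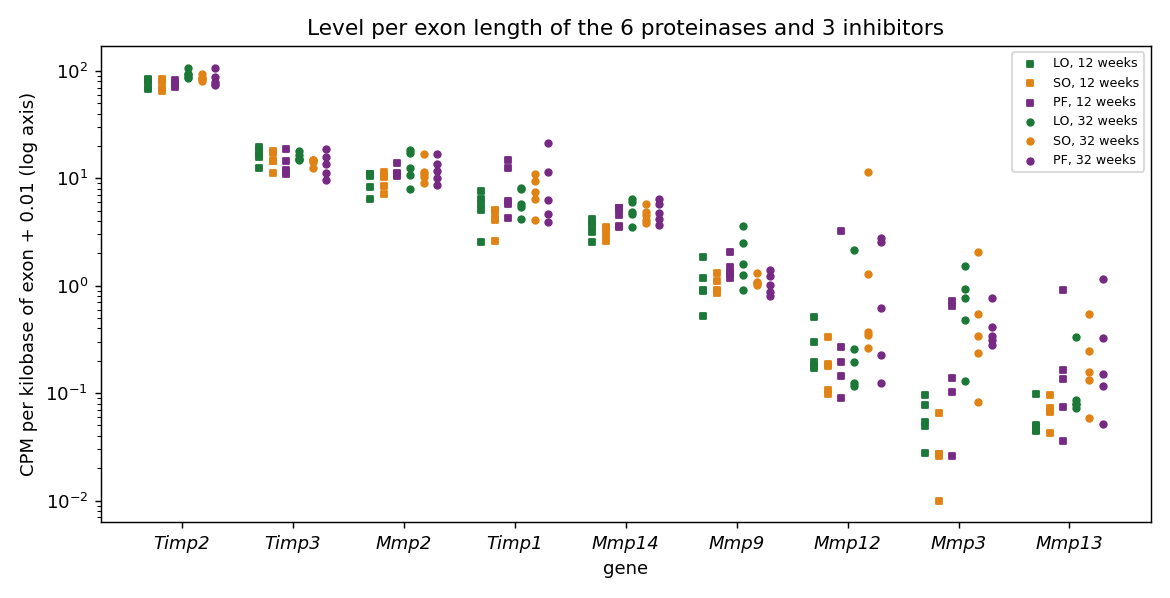
Level of each gene in CPM per kilobase of exon plus 0.01 on a log axis, 1 point per mouse, squares for 12 weeks and circles for 32 weeks, coloured by diet. Timp2 lies above all other genes, the Timp3, Mmp2, Timp1 and Mmp14 points form a middle band, and Mmp12, Mmp3 and Mmp13 lie lowest with the widest scatter.

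Depth set what could be tested. Counts per mouse were 7493 to 15826 for Timp2, 2578 to 5920 for Timp3, 681 to 2198 for Mmp2, 466 to 1474 for Mmp14, 71 to 717 for Timp1 and 58 to 416 for Mmp9. Mmp12 ranged from 21 to 2842 counts. Mmp3 had 0 to 131 counts and Mmp13 had 2 to 116, and these were the 2 members with too few counts for the filter on low expression at 12 weeks. All 9 passed at 32 weeks. In the fit of all 30 mice, which is used for the comparisons over time, Mmp3 and Mmp13 passed the filter because of the groups in which they were higher. For 1 mouse, 3 counts corresponded to about 0.1 CPM.

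The genes lie on 7 chromosomes (GRCm38). Mmp3 (chr9:7445822-7455975), Mmp12 (chr9:7344381-7369499) and Mmp13 (chr9:7272514-7283331) lie on the plus strand in the MMP cluster of chromosome 9. Mmp2 is at chr8:92827291-92853420, Mmp9 at chr2:164940780-164955850, Mmp14 at chr14:54431612-54445364 and Timp1 at chrX:20870166-20874735, all on the plus strand. Timp2 is at chr11:118301069-118355740 on the minus strand and Timp3 at chr10:86300372-86349506 on the plus strand. Timp1 lies inside Syn1 and Timp3 inside Syn3, on the opposite strand in both cases. Timp3 shares 1733 exon bases with Syn3, which had at most 171 counts in any mouse, and the strand setting of the counting is not given in the sources used here.

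The promoters of the 3 clustered genes are shown because these genes varied most from mouse to mouse and 2 of them varied together, as described below. The windows run from 250 bases before to 50 bases after the RefSeq start on GRCm38.p6, 5′ to 3′ on the gene's strand, and capitals mark TGAGTCA or its reverse complement TGACTCA, the AP-1 motif. Mmp3 is chr9:7445572-7445871 (+), Mmp12 is the second of 2 listed starts at chr9:7347124-7347423 (+), and Mmp13 is chr9:7272264-7272563 (+).
Mmp3: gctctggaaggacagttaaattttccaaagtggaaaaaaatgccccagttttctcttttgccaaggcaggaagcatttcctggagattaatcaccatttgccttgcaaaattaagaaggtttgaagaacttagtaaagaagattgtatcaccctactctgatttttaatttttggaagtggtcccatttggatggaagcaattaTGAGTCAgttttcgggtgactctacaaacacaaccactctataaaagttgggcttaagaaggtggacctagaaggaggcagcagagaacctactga
Mmp12: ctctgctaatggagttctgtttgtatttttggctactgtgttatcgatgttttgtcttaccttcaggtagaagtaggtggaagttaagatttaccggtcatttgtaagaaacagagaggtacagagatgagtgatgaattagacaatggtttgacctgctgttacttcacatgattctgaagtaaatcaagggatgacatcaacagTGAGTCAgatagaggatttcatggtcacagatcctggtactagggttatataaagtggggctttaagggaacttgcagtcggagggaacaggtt
Mmp13: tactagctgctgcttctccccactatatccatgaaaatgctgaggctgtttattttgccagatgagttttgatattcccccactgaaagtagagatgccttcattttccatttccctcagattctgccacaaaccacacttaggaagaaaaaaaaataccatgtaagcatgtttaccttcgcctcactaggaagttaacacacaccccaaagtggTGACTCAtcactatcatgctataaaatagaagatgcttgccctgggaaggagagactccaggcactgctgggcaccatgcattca
The motif began 46 bases before the start in Mmp3, 44 in Mmp12 and 35 in Mmp13. TATAAA on the gene's strand or its reverse complement began 7 bases before the start in Mmp3 and 16 in Mmp13. In Mmp12 it lay after the start, at base 5. TGAGTCA on either strand was found in 1709 of 32851 mouse promoter windows of this length (5.2%) and TATAAA in 13.6%. The other Mmp12 start (chr9:7344147-7344446) held neither. Of the 7 members with a window in the RefSeq table, Mmp14, Timp1, Timp2 and Timp3 had no TGAGTCA and at least 1 GC box (GGGCGG on either strand, in 35.7% of windows). A match of letters is a description and not evidence of binding. Mmp2 and Mmp9 had no entry.

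After 12 weeks, edgeR called 0 of 15873 genes between PF and SO at an adjusted p under 0.05 (0%), with 1269 genes (7.99%) at an unadjusted p under 0.05. The DESeq2 Wald test called 225 (0.887%). None of the 7 members tested passed by edgeR. An unadjusted p under 0.05 was found for 3 of them (Mmp12, Mmp14 and Timp1), all higher in PF mice, where 6.14% of all genes had such a p in this direction.

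Among the proteinases that passed the filter at 12 weeks, Mmp14 had the smallest p for PF against SO by edgeR. This membrane-anchored proteinase cleaves collagen and activates the Mmp2 precursor. Its levels were 31.2, 26.9, 31.6, 21.2 and 21.1 CPM in PF mice 1 to 5, 17.7, 21, 15.3, 20.3 and 20.5 in SO mice and 25.0, 15.2, 18.6, 22.9 and 21.6 in LO mice. Every PF mouse was above every SO mouse, by a narrow margin, and PF overlapped with LO. The share of all genes that separate in this way was not counted, so the separation is a description only. For PF against SO the log2 fold change of Mmp14 was 0.48 (SE 0.149), with an unadjusted p of 0.00557 and an adjusted p of 0.259 by edgeR's quasi-likelihood test with Benjamini-Hochberg adjustment, so it did not pass. Against LO it was 0.36 (SE 0.149, edgeR adjusted p = 0.507).

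Mmp2, the gelatinase that Mmp14 activates, stood at 35.3 to 46.9 CPM in PF (median 37.3), 24.2 to 38.6 in SO (median 34.8) and 21.5 to 37.1 in LO mice (median 35.6), and the groups overlapped. Its log2 fold change was 0.27 (SE 0.154) for PF against SO and did not pass (edgeR adjusted p = 0.801). Mmp9, the other gelatinase, had 4.17 to 7.22 CPM in PF, 3.02 to 4.65 in SO and 1.83 to 6.45 in LO mice. The highest PF mouse (mouse 1) and the highest LO mouse (mouse 1) lay apart from the rest, and the log2 fold change of PF against SO was 0.53 (SE 0.26, edgeR adjusted p = 0.675).

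Mmp3, or stromelysin-1, which degrades proteoglycans and activates other MMPs, had at most 3 counts in any SO mouse at 12 weeks. SO mice 1 to 5 had 0, 1, 3, 1 and 1 counts, LO mice 6, 1, 2, 3 and 4, and PF mice 9, 41, 37, 6 and 1. Thus PF mice 2 and 3 (1.15 and 1.29 CPM) carried most of the PF signal, PF mouse 5 was within the SO range, and all groups overlapped. The mean difference of PF from SO was 0.536 CPM (SE 0.268, exact permutation p = 0.0397, n = 5 and 5), of PF from LO 0.482 CPM (SE 0.268, exact permutation p = 0.0873) and of LO from SO 0.0535 CPM (SE 0.0267, exact permutation p = 0.0794). These are 3 of 6 such tests of low-count members, unadjusted, and the smallest p that 5 against 5 mice allow is 0.00794. In fits that kept Mmp3, the log2 fold change of PF against SO was 3.93 (SE 0.978, adjusted p = 0.0107) by DESeq2, 3.79 (SE 0.865, adjusted p = 0.153) by edgeR without a filter and 3.79 (SE 1.02, adjusted p = 0.188) by edgeR over all 30 mice. The call therefore depended on the tool. When 1 mouse was left out, the exact permutation p rose above 0.05 in 9 of 10 cases, up to 0.0794, and the mean difference ranged from 0.356 CPM without PF mouse 3 to 0.672 CPM without PF mouse 5. With 1 mouse fewer, the smallest p that the test allows is also larger than 0.00794. The other comparisons of Mmp3 also turned on single mice, with an exact permutation p of 0.0159 for PF against LO without PF mouse 5, and of 0.0476 and 0.0159 for LO against SO without LO mouse 2 and without SO mouse 3. In each of these cases the mouse left out went against the difference, so the lower p is no support for one.

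In the other 2 proteinases, PF mouse 1 set the 12-week difference. Mmp12, the metalloelastase typical of macrophages, was at 23.3, 0.979, 1.89, 0.58 and 1.33 CPM in PF mice 1 to 5, 2.35, 1.29, 1.22, 0.704 and 0.64 in SO mice and 3.63, 1.17, 1.33, 1.22 and 2.1 in LO mice. Apart from PF mouse 1 the 3 groups overlapped, with the lowest LO mouse above 2 of the other 4 PF mice. Its log2 fold change between PF and SO was 2.18 (SE 0.86, edgeR adjusted p = 0.463) with that mouse and -0.04 without it, and against LO it went from 1.57 to -0.66. Mmp13, an interstitial collagenase, had 94 counts (2.43 CPM) in the same mouse and 2 to 15 counts in the other 4 PF mice, against 3 to 7 counts in SO and 3 to 9 in LO mice. Its mean difference of PF from SO was 0.527 CPM (SE 0.442, exact permutation p = 0.119), and without PF mouse 1 it was 0.0898 CPM. Between PF and LO the mean difference was 0.559 CPM (SE 0.442, exact permutation p = 0.0873) and between LO and SO -0.0324 CPM (SE 0.0355, exact permutation p = 0.444). Without PF mouse 3, which had the lowest PF level, the exact permutation p was 0.0317 against either diet. That mouse went against the difference, so the lower p is no support for one.

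Of the inhibitors at 12 weeks, Timp1, the inducible secreted TIMP, had the smallest p. PF mice 1 to 5 had 13.1, 5.4, 11, 3.81 and 5.06 CPM, SO mice 4.42, 4.52, 3.78, 3.64 and 2.3, and LO mice 6.78, 2.24, 4.49, 5.75 and 5.16. PF mice 1 and 3 lay above all SO and LO mice. PF mice 2 and 5 lay above all SO mice but within the LO range, and PF mouse 4 lay within both ranges. PF differed from SO by 1.04 on the log2 scale (SE 0.344), or 2.06-fold, with an unadjusted p of 0.00825 and an adjusted p of 0.297 by edgeR, and it stayed between 0.77 and 1.22 when any 1 mouse was left out. Timp2, which also serves in the activation of Mmp2 at the cell surface, had 278 to 320 CPM in PF, 251 to 325 in SO and 263 to 325 in LO mice, and PF differed from SO by -0.0034 on the log2 scale (SE 0.0861). Timp3, which binds to the matrix, had 90.1 to 153 CPM in PF, 91.9 to 147 in SO and 101 to 160 in LO mice, and its log2 fold change was -0.14 (SE 0.161), which did not pass. Levels of Timp2 and Timp3 overlapped widely between the diets.

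Between PF and LO at 12 weeks edgeR called 0 genes (0%; 1466 genes or 9.24% at an unadjusted p under 0.05; DESeq2 75 or 0.296%), and between LO and SO again 0 (0%; 679 genes or 4.28% unadjusted; DESeq2 0 or 0%). No member was called by either tool in these 2 comparisons, and DESeq2 gave no adjusted p for Mmp3 and Mmp13 between PF and LO or for Mmp12 in any of the 3 diet comparisons at 12 weeks. Of the 7 members tested, 1 (Mmp14) had an unadjusted p under 0.05 for PF against LO and none for LO against SO, with log2 fold changes of -0.28 to 1.57 and of -0.02 to 0.61. PF against SO and PF against LO share the PF mice.

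Macrophage markers were also at higher levels in PF mice. The summed level of 8 markers (Adgre1, Cd68, Csf1r, Cd14, Itgam, Mrc1, Lyz2 and Cd163) was 159 to 315 CPM in PF, 94.1 to 163 in SO and 109 to 237 in LO mice at 12 weeks, and 6 of the 8 had an unadjusted p under 0.05 for PF against SO, none passing after adjustment by edgeR. Adgre1, the F4/80 antigen, had the smallest p of these (log2 fold change 0.99, SE 0.209, edgeR adjusted p = 0.138). All 8 fibroblast markers were also above 0 for PF against SO, 1 of them with an unadjusted p under 0.05, and they summed to 841 to 1113 CPM in PF and 652 to 868 in SO mice. The 6 endothelial markers were all above 0 as well, 4 with an unadjusted p under 0.05 and none passing by edgeR (median log2 fold change 0.35), and summed to 56.1 to 81.7 CPM in PF and 48.1 to 60.5 in SO mice. In contrast, 6 of 7 smooth muscle, 7 of 8 luminal epithelial and 5 of 6 adipocyte markers were below 0 for PF against SO. No marker of these last lists had an unadjusted p under 0.05 by edgeR. Neutrophil markers were low throughout. The 8 summed to 0.662 to 2.99 CPM in PF, 0.262 to 0.527 in SO and 0.41 to 0.881 in LO mice at 12 weeks. PF and SO did not overlap, but these sums rest on few counts, and how often such a separation occurs was not counted. Retnlg, the one of the 8 that passed the filter at 12 weeks, gave 2.37 on the log2 scale for PF against SO (SE 0.725, unadjusted p = 0.00498, edgeR adjusted p = 0.249), S100a8 and S100a9 reached 40 and 59 counts in single mice, and Ly6g, Mpo, Elane and Camp had at most 3 counts in any of the 30 mice. Retnlg itself had 1 to 216 counts per mouse, with a median of 11 over the 30 mice. Whether it passed the filter only through the PF mice was not checked, so its value is no independent support for a difference. The part of these cell types in the differences of Mmp14, Timp1 and Mmp3 was not tested.

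**Figure D2:**
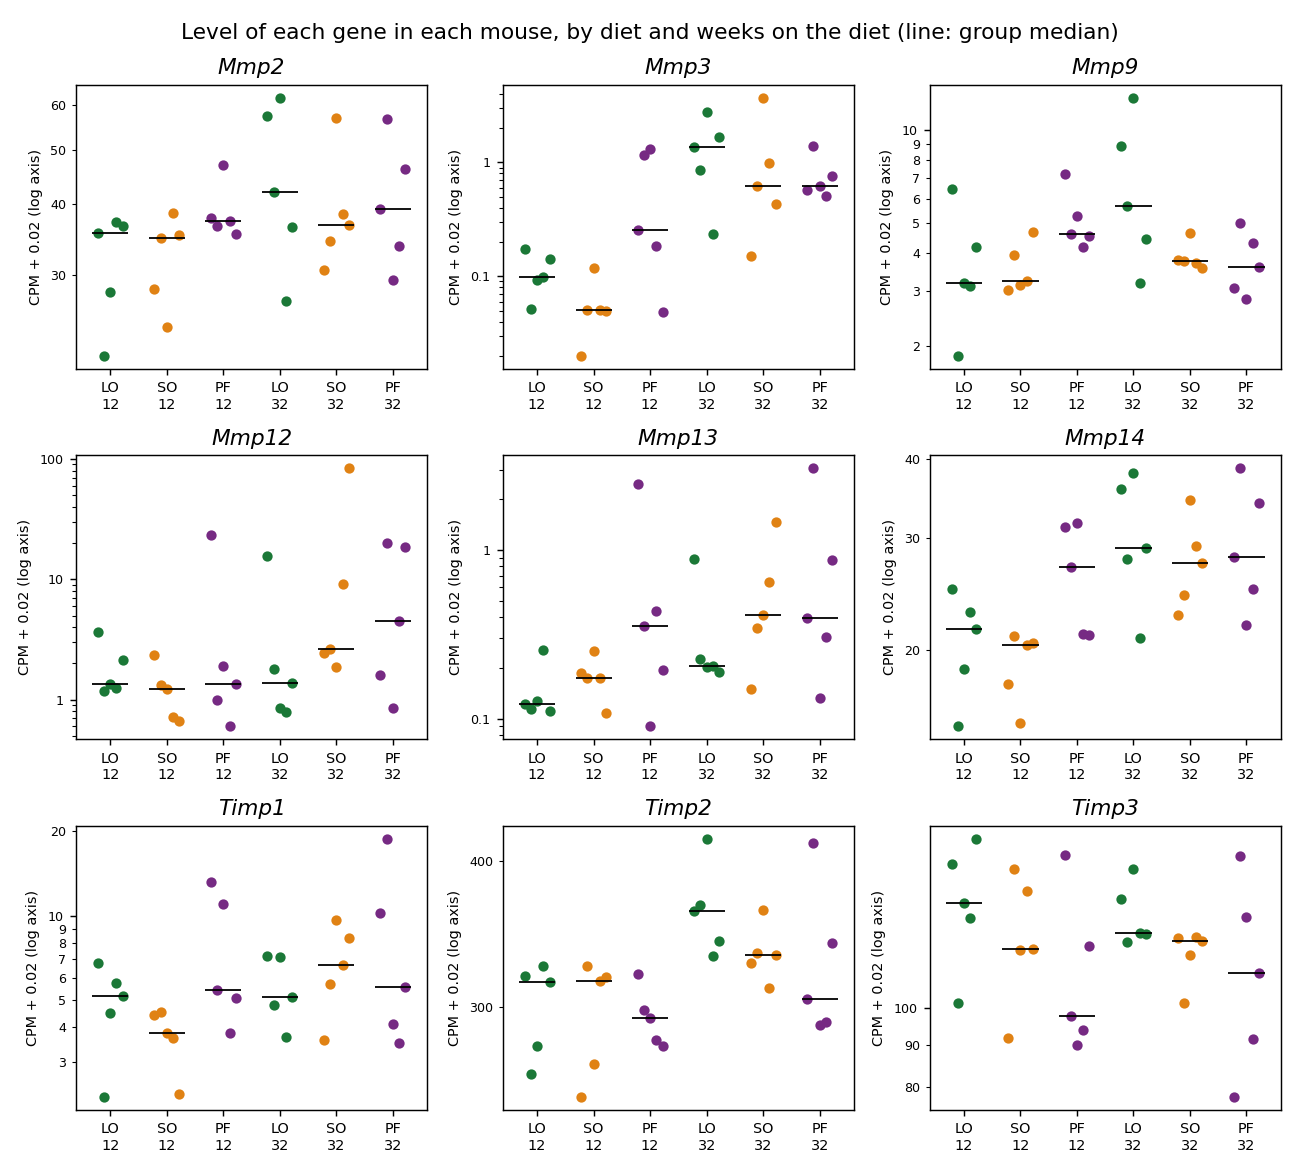
CPM plus 0.02 on a log axis for the 9 genes, 1 point per mouse, grouped by diet and weeks, with the group median as a line. Every PF point of Mmp14 at 12 weeks is above every SO point, Mmp3 is lowest in SO mice at 12 weeks, and lone high points stand out in Mmp12 and Mmp13. The share of all genes with such a separation was not counted.

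After 32 weeks no member passed between diets by either tool, and DESeq2 gave no adjusted p for Mmp13 between PF and LO. edgeR called 0 of 16218 genes between PF and SO (0%; 1748 genes or 10.8% at an unadjusted p under 0.05), 0 between PF and LO (0%; 1394 or 8.6%) and 0 between LO and SO (0%; 565 or 3.48%). DESeq2 called 109 (0.424%), 85 (0.331%) and 6 (0.0234%). Of the 9 members, 0, 1 and 1 had an unadjusted p under 0.05 by edgeR.

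The member with such a p was Mmp9. LO mice 1 to 5 had 8.89, 5.65, 12.7, 3.16 and 4.4 CPM, SO mice 3.76, 3.75, 4.62, 3.68 and 3.56, and PF mice 3.05, 4.97, 2.82, 4.29 and 3.58. LO mice 1, 2 and 3 were above all other mice at 32 weeks, and LO mice 4 and 5 were among them. By edgeR, the log2 fold change was -0.89 (SE 0.304, unadjusted p = 0.0105, adjusted p = 0.437) for PF against LO and 0.86 (SE 0.304, unadjusted p = 0.0129, adjusted p = 0.9997) for LO against SO. Without LO mouse 3 these were -0.56 and 0.53. The same mouse had the highest summed macrophage markers of all 30 mice (713 CPM, against 152 to 409 in the other LO mice at 32 weeks), and their part in the Mmp9 difference was not tested.

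Mmp3, Mmp14 and Timp1 overlapped between all 3 diets at 32 weeks. Mmp3 was at 1.36, 0.844, 2.75, 0.215 and 1.65 CPM in LO mice, 0.13, 0.595, 3.67, 0.959 and 0.412 in SO mice and 0.549, 1.36, 0.601, 0.483 and 0.733 in PF mice. SO mouse 3 and LO mouse 3 had the highest values, and PF differed from SO by -0.61 on the log2 scale (SE 0.718, edgeR adjusted p = 0.789). Mmp14 was at 20.9 to 38.0 CPM in LO, 22.7 to 34.4 in SO and 21.9 to 38.6 in PF mice, with log2 fold changes from -0.03 to 0.14 among diets. Timp1 was at 3.68 to 7.16 CPM in LO, 3.6 to 9.67 in SO and 3.49 to 18.8 in PF mice, and PF mouse 2 had the highest level of the series. PF against SO gave 0.34 on the log2 scale (SE 0.411, edgeR adjusted p = 0.798), and -0.18 without PF mouse 2. Mmp12 and Mmp13 at 32 weeks are given below with the comparison over time.

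Levels of Mmp2 (26.9 to 61.8 CPM over the 15 mice), Timp2 (289 to 418 CPM) and Timp3 (77.9 to 153 CPM) also overlapped between the diets at 32 weeks, with log2 fold changes no further from 0 than 0.21. The 6 adipocyte markers summed to 50.1 to 566 CPM in PF, 28.0 to 227 in SO and 47.4 to 290 in LO mice at this time, and 4 of them had an unadjusted p under 0.05 for PF against SO, none passing by edgeR. Their part in the members' values was not tested.

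**Figure D3:**
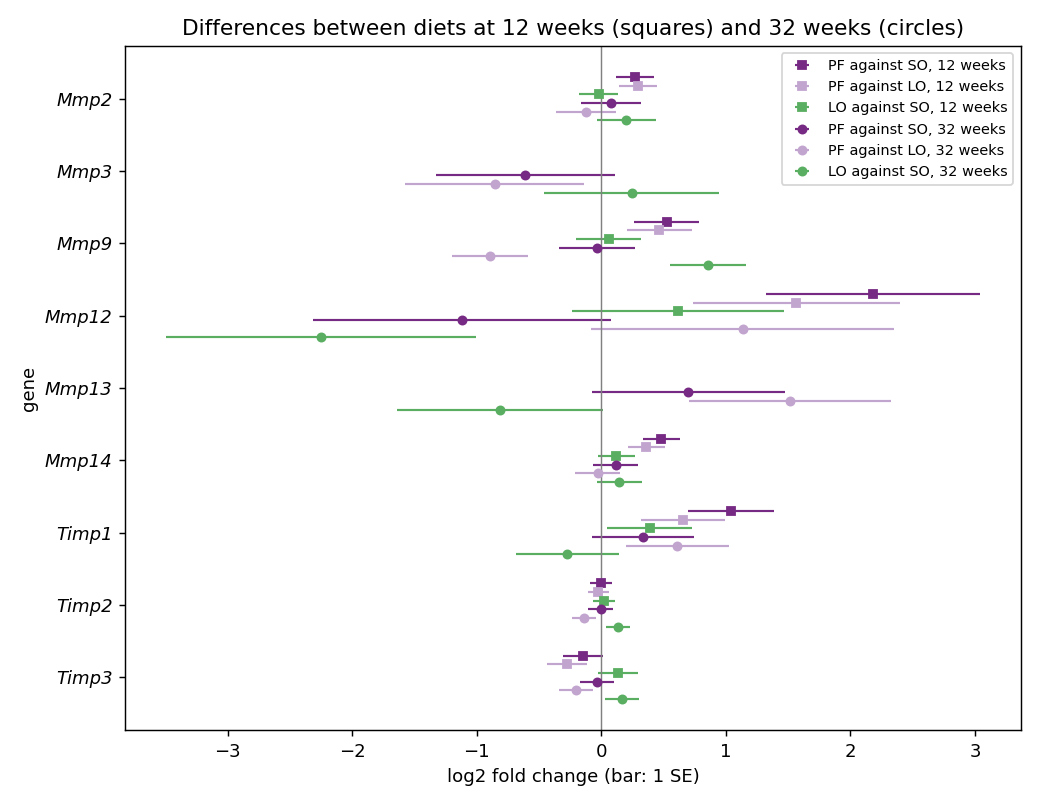
Log2 fold change between diets with 1 SE for each gene, squares for 12 weeks and circles for 32 weeks. At 12 weeks Mmp14 (0.48) and Timp1 (1.04) lie right of 0 for PF against SO, at 32 weeks Mmp9 lies at -0.89 for PF against LO, and Timp2 and Timp3 stay near 0, while Mmp3 and Mmp13 have no 12-week point.

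By edgeR, more genes were called over time than between diets. In the fit of all 30 mice, edgeR called 448 of 16605 genes between 32 and 12 weeks in LO mice (2.7%; 1.74% higher and 0.958% lower), 1073 in SO mice (6.46%; 5.25% higher and 1.22% lower) and 5 in PF mice (0.0301%). At an unadjusted p under 0.05 these shares were 20.5%, 19.7% and 10.2%, and DESeq2 called 4.08%, 5.59% and 0.195%, the last being fewer genes than it called between PF and either other diet at 12 or 32 weeks. Leaving out 1 mouse moved the edgeR counts to between 47 (without LO mouse 3 at 12 weeks) and 1043 (without LO mouse 4 at 32 weeks) in LO mice, 226 (without SO mouse 4 at 32 weeks) and 1556 in SO mice and 0 and 7 in PF mice. Of the 9 members, Mmp3 passed as higher at 32 weeks in LO mice, Mmp3 and Mmp12 in SO mice, and none in PF mice. Mmp3 had too few counts to be tested at 12 weeks alone and entered this fit through the groups in which it was higher, so its calls are no independent support for a rise. Age, time on the diet and any difference in the handling or sequencing of the 2 sets of mice cannot be told apart.

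Mmp3 had the largest log2 fold change over time of the 9 members in LO and in SO mice, while in PF mice those of Mmp12 and Mmp13 were larger. It went from 0.0316 to 0.153 CPM in LO mice at 12 weeks to 0.215 to 2.75 CPM at 32 weeks. In SO mice it went from 0 to 0.0987 CPM to 0.13 to 3.67 CPM. The times did not overlap on either diet, but the nearest mice had 6 and 7 counts in LO and 3 and 4 in SO mice. The share of all genes without overlap was not counted in any comparison. In PF mice 0.0289 to 1.29 CPM at 12 weeks overlapped with 0.483 to 1.36 CPM at 32 weeks. The fitted log2 fold change, with the limit on entry into the fit given above, was 3.82 (SE 0.86, edgeR adjusted p = 0.018) in LO mice. It was 4.82 (SE 0.986, edgeR adjusted p = 0.00603) in SO mice and 0.40 (SE 0.719, edgeR adjusted p = 0.889) in PF mice. The call in LO mice was lost without LO mouse 2 or 3 of 12 weeks or LO mouse 3 of 32 weeks (edgeR adjusted p of 0.0628 to 0.0684, log2 fold changes of 3.41 to 3.78), and that in SO mice held without any 1 mouse. The fitted values for such low counts depend on the prior count. As plain sums, LO mice had 16 counts at 12 weeks and 231 at 32 weeks, a ratio of 14.2 for the depths of these libraries. SO mice had 6 and 201 (ratio 32.0), with 131 of the 201 in SO mouse 3, and PF mice 94 and 132 (ratio 1.4). The sums leave out the spread between mice and are no further support for a rise. Whether the difference between diets itself changed with time was tested as an interaction, which for Mmp3 was -4.41 (SE 1.25, unadjusted p = 0.00145, adjusted p = 0.237) for PF against SO and -3.42 (SE 1.12, unadjusted p = 0.00513, adjusted p = 0.514) for PF against LO by edgeR. edgeR called 0 genes in each of these interactions (0%), with 1576 (9.49%) and 1294 (7.79%) at an unadjusted p under 0.05, and DESeq2 called 44 (0.165%) and 12 (0.0449%) but not Mmp3. For LO against SO edgeR called 0 genes (0%; 553 or 3.33% unadjusted) and DESeq2 0 (0%), and no member had an unadjusted p under 0.05. A difference between diets in the change of Mmp3 over time was therefore not shown.

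The rise of Mmp12 in SO mice was set by SO mouse 5. At 32 weeks SO mice 1 to 5 had 2.43, 2.62, 1.85, 9.17 and 83.6 CPM, against 0.64 to 2.35 at 12 weeks. The fitted change was 4.01 on the log2 scale (SE 1.22, edgeR adjusted p = 0.0467), and without SO mouse 5 it was 1.69 (edgeR adjusted p = 0.413). The call was lost in 7 of 10 cases when 1 mouse was left out, with all 5 of the 12-week SO mice and SO mice 4 and 5 of 32 weeks among them. LO mice were at 15.5, 1.79, 0.826, 0.767 and 1.34 CPM and PF mice at 1.57, 19.9, 0.826, 4.46 and 18.6 CPM at 32 weeks, with changes over time of 1.10 (SE 1.12) and 0.69 (SE 1.07) on the log2 scale that did not pass. Between the diets at 32 weeks the Mmp12 log2 fold changes were -1.12 (SE 1.2) for PF against SO, 1.13 (SE 1.21) for PF against LO and -2.25 (SE 1.24) for LO against SO, and none passed. Mmp13 had 0.168 to 0.862 CPM in LO, 0.13 to 1.44 in SO and 0.113 to 3.04 in PF mice at 32 weeks, and its change over time in SO mice was 1.87 on the log2 scale (SE 0.86, edgeR adjusted p = 0.216).

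Among the members with more counts, Mmp14 was higher at 32 weeks in all 5 SO mice (22.7 to 34.4 CPM) than in any SO mouse at 12 weeks (15.3 to 21 CPM). For this and for Timp2 below, the share of all genes without overlap was not counted. The log2 fold change of Mmp14 was 0.54 (SE 0.171, edgeR adjusted p = 0.0556) in SO mice, 0.55 (SE 0.171, edgeR adjusted p = 0.0686) in LO mice and 0.16 (SE 0.17, edgeR adjusted p = 0.792) in PF mice. The first 2 passed by DESeq2 (adjusted p = 0.0359 and 0.0325) and not by edgeR. Timp2 was at 332 to 418 CPM in LO mice at 32 weeks and at 263 to 325 at 12 weeks, without overlap, and its log2 fold change of 0.28 (SE 0.092, edgeR adjusted p = 0.082; DESeq2 adjusted p = 0.0493) was smaller than that of any proteinase in these mice. Without TMM scaling the median of all genes shifts by 0.142 on the log2 scale in LO mice and by 0.170 in SO mice, so that rises of this size are meant relative to the other genes. Mmp9 had 0.89 (SE 0.294, edgeR adjusted p = 0.0814; DESeq2 adjusted p = 0.0373) in LO and -0.46 (SE 0.293, edgeR adjusted p = 0.618) in PF mice, and the interaction for PF against LO was -1.35 (SE 0.415, unadjusted p = 0.00299, edgeR adjusted p = 0.47). Mmp2 had 0.50 (SE 0.207, edgeR adjusted p = 0.163) in LO mice. Timp1 had 0.86 (SE 0.4, edgeR adjusted p = 0.219) in SO mice. Timp3 had values between -0.08 and 0.02 on the 3 diets.

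All 8 macrophage markers had log2 fold changes above 0 from 12 to 32 weeks on each diet. Of these, 3 (Adgre1, Cd68 and Lyz2) passed in SO mice, none in LO mice, where 7 had an unadjusted p under 0.05, and none in PF mice. Their median log2 fold change was 0.96 in LO, 0.90 in SO and 0.05 in PF mice, beside -0.01, -0.00 and 0.00 over all genes tested. Sbp fell by 0.81 and by 0.96 on the log2 scale in LO and SO mice and passed in both (edgeR adjusted p = 0.041 and 0.01). Of the 8 luminal genes, Spink1 gave -0.54 and -0.49 with an unadjusted p under 0.05 in both, the other 6 had none, 3 of the 8 were above 0 on each of these diets, and the median was -0.07 in LO and -0.20 in SO mice. Fibroblast markers were above 0 for 7 of 8 in LO (3 with an unadjusted p under 0.05) and 4 of 8 in SO mice (1), endothelial markers for 6 of 6 in both (3 and 2), and the 7 smooth muscle markers were below 0 on every diet (1, 0 and 2 in LO, SO and PF mice), none of them passing by edgeR. The part of any of these in the differences of the MMPs over time was not tested.

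**Figure D4:**
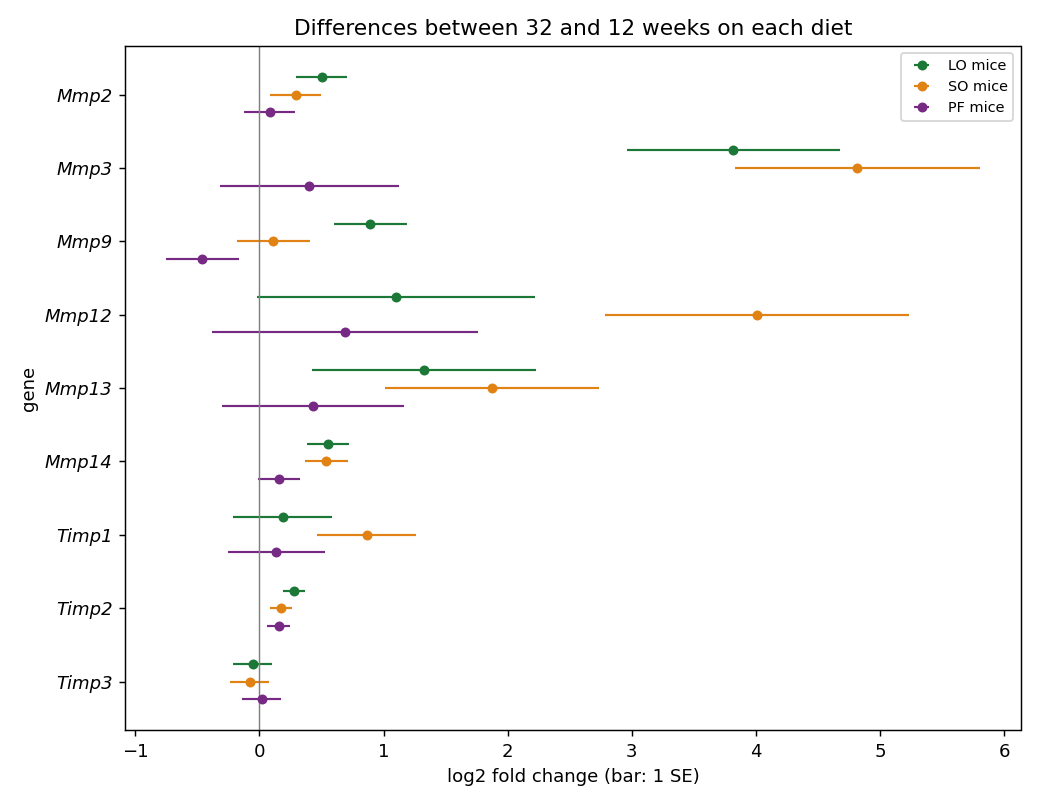
Log2 fold change from 12 to 32 weeks with 1 SE for each gene on each diet, in the fit of all 30 mice. Mmp3 stands at 3.82 in LO and 4.82 in SO mice and at 0.40 in PF mice, Mmp12 at 4.01 in SO mice with a wide error, and Timp3 near 0 on every diet.

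Mmp12 and Mmp13 were high in the same few mice, whatever the diet. The 5 mice with the highest Mmp12 were SO mouse 5 at 32 weeks (83.6 CPM), PF mouse 1 at 12 weeks (23.3), PF mouse 2 at 32 weeks (19.9), PF mouse 5 at 32 weeks (18.6) and LO mouse 1 at 32 weeks (15.5). The same mice were the 5 highest for Mmp13, with 1.44, 2.43, 3.04, 0.85 and 0.862 CPM in that order. They came from all 3 diets and both times, and 4 of the 5 were 32-week mice. No claim on diet is made from them, since they are named by the measured level.

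The genes whose pattern was most like Mmp12 were found over the 30 mice after the mean of each of the 6 groups was subtracted from log2 CPM, among 16604 other genes. They were Gpnmb (Pearson r = 0.932, Spearman rho = 0.83), a glycoprotein of lipid-laden macrophages and osteoclasts, Atp6v0d2 (0.906 and 0.725), a proton pump subunit typical of such cells, and Spp1 (0.883 and 0.736), the secreted phosphoprotein osteopontin. Those most like Mmp13 were Mmp10 (0.888 and 0.805), a stromelysin of the same cluster on chromosome 9, Spp1 and Atp6v0d2. Without the 2 mice farthest from the median, r for the 3 Mmp12 pairs was 0.84 to 0.888. These genes were chosen for their likeness, so the values describe it and are given without a p. Mmp10 passed the filter on low counts only through the mice highest for Mmp13, so its place was largely set by that filter.

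In the 5 mice named above, in the same order, Spp1 was at 223, 141, 186, 92.2 and 89.6 CPM and Mmp10 had 37, 20, 42, 20 and 24 counts. No other mouse had more than 42.2 CPM of Spp1 or more than 5 counts of Mmp10. Mmp10 did not pass the filter on low counts at either time alone. It entered the set of genes compared over all mice through these same 5 mice. That Mmp10 was high in just these mice was therefore largely set by the filter and is no independent support for a shared pattern. Atp6v0d2 was highest in the same 5 mice, and Gpnmb in 4 of them, as SO mouse 4 at 32 weeks took the fifth place. The summed general macrophage markers of the 5 mice named above were 374, 315, 464, 360 and 391 CPM in that order. Each was at or above the median of its own group, and 2 of them were among the 5 highest sums. LO mouse 3 at 32 weeks combined the highest sum (713 CPM) with 0.826 CPM of Mmp12. The part of macrophages in the Mmp12 levels was not tested.

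**Figure D5:**
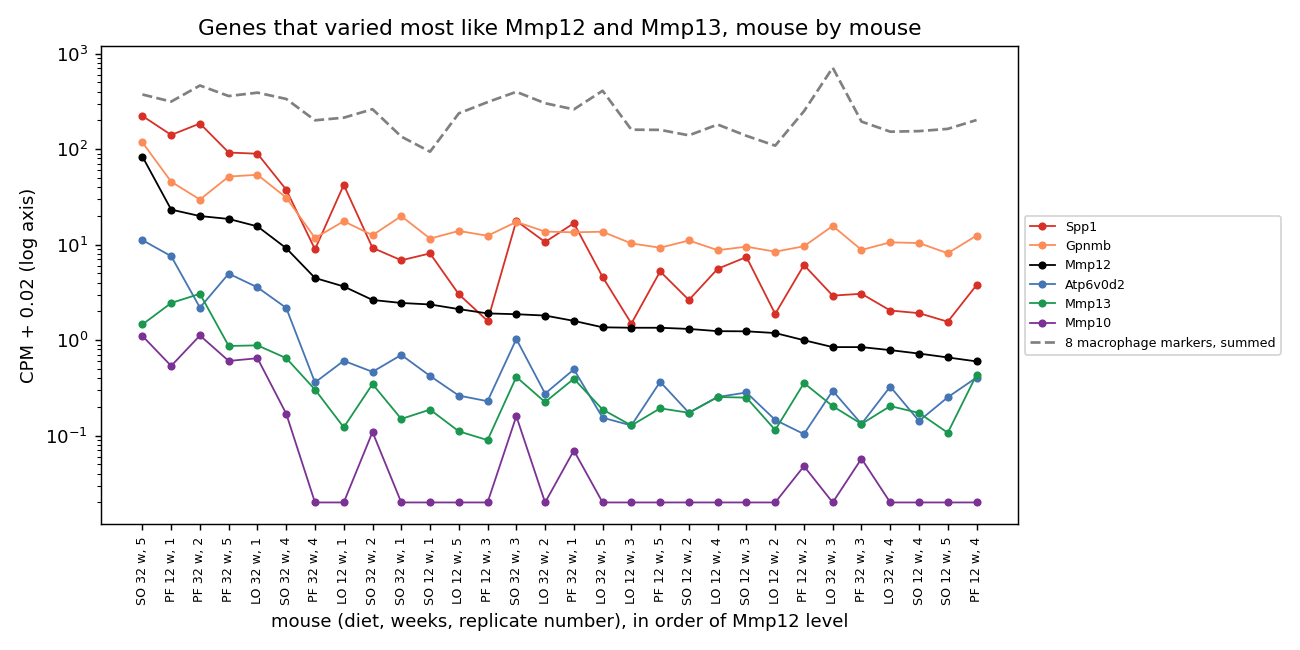
CPM plus 0.02 on a log axis for Mmp12, Mmp13, Mmp10, Gpnmb, Atp6v0d2 and Spp1 and for the sum of 8 macrophage markers (dashed), with the 30 mice in order of Mmp12 level. The 6 genes are high in the leftmost mice, starting with SO mouse 5 at 32 weeks with 83.6 CPM of Mmp12, although not in the same order from mouse to mouse, while the dashed line has its highest point, 713 CPM, far to the right.

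Mmp3 varied with other genes. Its closest were Fcgr2b (r = 0.883), the inhibitory Fc receptor, Pirb (0.882), an inhibitory receptor of myeloid cells, and Serpina3n (0.875), a protease inhibitor of the acute phase, and its r with Mmp12 was 0.0301 and with Mmp13 0.1. Mmp2 and Mmp14 had each other as a near neighbour (r = 0.913, rank 1 for Mmp2 and rank 4 for Mmp14). Next for Mmp2 were Bgn, a small matrix proteoglycan, and Csf1r, the receptor for macrophage colony-stimulating factor, and for Mmp14 they were Rab3il1, Sirpa and Cmtm3 (r = 0.917 to 0.927). Mmp9 was most like Stab1 (0.872), a scavenger receptor of macrophages and endothelium, and Timp1 most like Mfap5 (0.874), a microfibril protein of the stroma. Timp2 was closest to Rgl1 and Tmem100, and Timp3 to Cped1 and Tmtc1. All 30 mice share the libraries and scaling behind these values.

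Of 18 further MMP and TIMP genes, 9 were tested at 12 weeks, 10 at 32 weeks and 11 over time, and none passed in any comparison by edgeR. Their median log2 fold change for PF against SO at 12 weeks was -0.05, beside -0.01 over all genes tested. Timp4 had 137 to 259 CPM and log2 fold changes between diets from -0.15 to 0.29. Mmp7, or matrilysin, an epithelial proteinase, spread from 4.92 to 267 CPM over the 30 mice, and its log2 fold change for LO against SO at 12 weeks was 1.98 (SE 0.842, unadjusted p = 0.0324), which did not pass. Mmp1a and Mmp1b, named after their values were seen, had 0 counts in every mouse.

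Of 16 ADAM and ADAMTS genes, relatives with a similar catalytic domain, 15 were above 0 for PF against SO at 12 weeks with a median log2 fold change of 0.37, beside -0.01 over all genes, and 5 had an unadjusted p under 0.05, none passing by edgeR. Adam8 (1.39, SE 0.32, edgeR adjusted p = 0.138), a proteinase of myeloid cells, and Adam19 (0.78, SE 0.183, edgeR adjusted p = 0.14) had the smallest p. Over time, Adamts9 rose by 0.60 on the log2 scale (SE 0.136, edgeR adjusted p = 0.0188) in LO mice and Adam17, which sheds TNF, by 0.29 (SE 0.0829, edgeR adjusted p = 0.0342) in SO mice. Of 15 activators and other inhibitors, 11 were tested, and Cd44, a hyaluronan receptor that anchors Mmp9, rose by 1.28 on the log2 scale (SE 0.298, edgeR adjusted p = 0.0109) in SO mice, with no other gene of this list passing. Plau, the urokinase that starts the plasmin cascade, gave 0.73 on the log2 scale (SE 0.247, edgeR adjusted p = 0.319) for PF against SO at 12 weeks and 0.69 (SE 0.314, edgeR adjusted p = 0.453) at 32 weeks.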

How the data were processed

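Total RNA of the ventral prostate of 30 mice was sequenced by the authors from strand-specific mRNA libraries as paired reads. Per the labels, the reads were aligned to GRCm38.p6 with TopHat2 and counted per gene with HTSeq, and the authors deposited a table of raw counts per gene for each mouse; DESeq2 is also among the tools the submitters' processing notes name. The strand setting, the annotation release and the tool versions are not given in the sources used here. Rows that name no gene were left out of library sizes and tests; of all counts in a file, 6.67 to 12.2% were without a feature, 0.831 to 1.18% ambiguous and 16 to 20.3% not uniquely aligned.

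Ensembl identifiers were matched to symbols and exon lengths with GENCODE M21 (37693 of 39179). Levels are CPM after TMM scaling over 30 mice, and levels between genes are CPM per kilobase of exon. Diets were compared at each time with edgeR 4.0.16 in R 4.3.3 (filterByExpr by group, TMM, 1 quasi-likelihood fit of the 3 diets), and times and their interaction with diet in 1 fit of all 30 mice. SE is the log2 fold change divided by the square root of F, and p-values were adjusted by Benjamini-Hochberg over all genes tested, with a threshold of 0.05. Members that did not pass the filter were compared by a two-sided exact permutation test of mean CPM. The steps were tested on simulated counts. Alternatives were DESeq2 1.42.0, RLE factors, other filters, robust fits, other sets of mice in the fit, a replicate block and leaving out each mouse.

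All 9 members were named. Of the other lists, at most 3 genes with the smallest p in a comparison, and every gene called, could be named, and for each member the 3 genes with the highest Pearson r of log2 CPM (prior count 2). The members and lists were chosen with earlier results of these data known. Each mouse is 1 sample, and p-values measure the spread between mice. No pair of libraries of the same group agreed within sampling noise (60 pairs), and pairs across groups were not checked. Promoters are from RefSeq (GRCm38.p6) and were searched on both strands.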

Additional observations from a re-analysis of the deposited data

Results flagged for a closer look

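Within each group of 5 mice, the highest and lowest mouse of each gene were compared with the nearest other mouse, relative to the range of the group (Dixon's test). Of 54 groups, 11 had an outlying mouse, in each case the highest one. The usual rate of 1 in 20 flagged groups assumes independent, normally spread values. It cannot be set against the 11, because CPM were tested unlogged and the genes share the same mice. In Mmp12 and Mmp13 there were 7 of the 11. Mmp12 was at 23.3 CPM in PF mouse 1 at 12 weeks (0.58 to 1.89 in the other 4), at 15.5 in LO mouse 1 at 32 weeks (0.767 to 1.79) and at 83.6 in SO mouse 5 at 32 weeks (1.85 to 9.17). Mmp13 was at 2.43 CPM in PF mouse 1 at 12 weeks (0.0699 to 0.414), at 0.862 in LO mouse 1 at 32 weeks (0.168 to 0.205), at 3.04 in PF mouse 2 at 32 weeks (0.113 to 0.85) and at 0.234, or 9 counts, in LO mouse 4 at 12 weeks (0.0911 to 0.108).

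SO mouse 3 at 32 weeks had 3.67 CPM of Mmp3 (0.13 to 0.959 in the other 4) and 4.62 CPM of Mmp9 (3.56 to 3.76). PF mouse 2 at 32 weeks had 1.36 CPM of Mmp3 (0.483 to 0.733). PF mouse 3 at 12 weeks had 46.9 CPM of Mmp2 (35.3 to 37.8).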

How the results depend on the processing

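Limits. The low counts of Mmp3 and Mmp13 and the lone high mice of Mmp12 and Mmp13 set the precision, and of the members that passed the filter none was called between diets by edgeR in any setting run. At 12 weeks DESeq2 called 225 genes between PF and SO, 75 between PF and LO and 0 between LO and SO, then in the same order 109, 85 and 6 at 32 weeks, 1089, 1494 and 52 over time in LO, SO and PF mice, and 44, 12 and 0 in the interactions, against 0, 0, 0, 0, 0, 0, 448, 1073, 5, 0, 0 and 0 by edgeR; Mmp9, Mmp14 and Timp2 in LO mice and Mmp14 in SO mice passed over time only by DESeq2 or without single mice. A fit of all 6 groups called 2 genes for PF against LO at each time, a fit of 2 diets 1 gene for LO against SO at 32 weeks, and over time in PF mice no filter gave 0 and a minimum of 10 counts in every mouse 2. Under the other settings that kept all mice, counts of genes stayed within 1.5 times. Timp2 for PF against SO at 12 weeks (-0.0034) changed sign with that minimum (0.00203) and with the replicate block (0.00163). Same-numbered mice correlated by 0.0559 (12 weeks, 5 of 15 pairs above 0.1) and 0.132 (32 weeks, 10 of 15) on average. Mice of different numbers correlated by -0.0137 and -0.0291. Group means were subtracted first, which largely fixes the values for different numbers from those for the same number, so they are no separate contrast. The main fits did not pair mice by number, and the replicate block was run as an alternative. Whether the numbers mark a shared handling was not tested. With the block, 668, 1224 and 6 genes were called over time in LO, SO and PF mice and 0 elsewhere, and 1 member call changed, Mmp12 in SO mice (3.57, edgeR adjusted p = 0.0533). That call was also lost without a filter (0.0601), with the minimum of 10 counts (0.0506) and in a robust fit (0.0546). Without TMM scaling the median of all genes shifts by -0.137 and -0.156 for PF against SO and LO at 32 weeks. When 1 mouse was left out, the genes called ranged over 0 to 131 (131 without PF mouse 5) for PF against SO at 12 weeks, 0 to 1 for PF against LO at 12 weeks (1 without LO mouse 5) and PF against SO at 32 weeks (1 without PF mouse 2), 0 to 3 for the PF against SO interaction, and, over time, 47 to 1043 in LO, 226 to 1556 in SO and 0 to 7 in PF mice. In LO mice 101, 47 and 714 were called without mice 2, 3 and 4 of 12 weeks and 250, 82, 1043 and 186 without mice 1, 3, 4 and 5 of 32 weeks, and in SO mice 673, 514 and 489 without mice 1, 4 and 5 of 12 weeks and 226 without mouse 4 of 32 weeks. In PF mice 0 were called without mouse 1, 2 or 3 of 12 weeks or mouse 3 of 32 weeks, 1 and 2 without mice 4 and 5 of 12 weeks, and 2 and 3 without mice 2 and 5 of 32 weeks. The 3 genes of the interaction came without PF mouse 5 of 12 weeks. Among the 44 member values followed singly, those that changed sign without 1 mouse were Mmp12 for PF against SO (-0.0431 to 2.53) and LO (-0.655 to 1.93) at 12 weeks, for PF against SO (-1.62 to 1.19) and LO against SO (-4.06 to 0.0535) at 32 weeks and over time in LO mice (-0.656 to 1.5), Mmp3 for PF against SO (-0.942 to 0.526) and LO against SO (-0.178 to 1.38) and Timp1 for PF against SO (-0.177 to 0.534) at 32 weeks, and Timp2 for PF against SO at 12 weeks (-0.0617 to 0.037). The cause of these changes was not tested. Over all 102 values of members in the 12 comparisons, 36 changed sign when 1 mouse was left out, and 2 calls were lost and 4 made.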
